A study of Mus musculus with 6 samples.

Results

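Proteasome genes were taken as all loci of the deposited RNA-seq table whose symbol is Psm, a letter from a to g and a number. The rule looked at names and not at values, and it found 48 of the 23793 loci. They are the 7 genes of the core alpha ring, the 7 of the core beta ring, 3 immunoproteasome genes, 2 tissue-specific forms, 6 base ATPases, 3 other base subunits, 8 lid subunits, 3 assembly factors of the base, 4 activators, 1 inhibitor and 4 assembly chaperones of the core. RNA came from whole cerebellum of mice at postnatal day 0, with 3 control libraries (genotype Zeb2 f/+; hGFAP-cre) and 3 conditional knockout (cKO) libraries (Zeb2 f/f; hGFAP-cre). Both groups therefore carried Cre under the human GFAP promoter, active in progenitors of the neural lineage and in glia, and the controls had 1 floxed and 1 wild-type Zeb2 allele. Cells outside that lineage, such as microglia and vessels, would keep Zeb2 in either group. Whether the 6 libraries stand for 6 animals is not in the labels, and the p-values then measure only how far these libraries spread, part of which may be technical.

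The proteasome is the barrel-shaped protease that degrades proteins tagged with ubiquitin in the cytosol and nucleus. Its core is a stack of outer alpha rings, which form the gate, and inner beta rings, which hold the proteolytic sites. The regulatory particle caps the barrel: the ATPases of the base unfold the substrate and push it in, while the lid removes the ubiquitin chain. In immune cells, and after interferon, the proteolytic beta subunits are exchanged for immunoproteasome forms. All dividing and differentiating cells of a growing brain need the proteasome, and its subunit genes are known to be expressed widely and in parallel.

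The targeted gene was checked first. The Zeb2 locus, which the table names together with the miRNA gene Mir5129, stood at 9.65 ± 1.73 FPKM in control and 5.30 ± 1.23 FPKM in cKO libraries (SD, n = 3), with no overlap and an exact two-sided permutation p of 0.1, the smallest that 3 against 3 libraries can give. It did not pass over all loci (limma adjusted p = 0.107, range 0.0350 to 0.312 over the alternatives). Library sums were 497542 FPKM in cKO 1 and 519248 to 524474 FPKM in the other 5, and the sources used here give no number of reads. All 6 markers of cerebellar tissue were tested (summed 394 to 459 FPKM over the 6 libraries), and of the forebrain markers Emx1 and Emx2 stayed at or under 0.115 FPKM while Neurod6 was at 14.5 to 17.2 FPKM in control and had a mean of 14.7 FPKM in cKO. All 3 cKO libraries carried Xist (142 to 147 FPKM) and no control library exceeded 0.515 FPKM, with Y-linked Eif2s3y the other way (34.4 to 37.2 against at most 0.108 FPKM), so effects of genotype and of sex cannot be told apart here. By deposit, control 3 and cKO 3 belong to deposit 2 and the other libraries to deposit 1. The libraries also fell into 2 sets by the step pattern of values under 0.1 FPKM. Control 1 and cKO 3 made up the first set and the remaining 4 libraries the second, so these sets cut across the deposits. They are called processing sets here, a name inferred from the values, since no label records them. The ratios of low values gathered in a window of 0.06 log2 units for 24.2 to 32.9% of loci in pairs within a set and for 7.35 to 8.90% in pairs across sets. Over 13612 tested loci, 45 were lower and 33 higher in cKO at a limma adjusted p of at most 0.05.

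The genes of the standing proteasome were abundant and close to each other in level. FPKM is scaled for transcript length, so levels can be set side by side between genes. Control means lay between 72.7 FPKM (Psma5) and 142 FPKM (Psma7) for the alpha ring, and between 106 FPKM (Psmb2) and 179.5 FPKM (Psmb7) for the beta ring without Psmb5. In the regulatory particle they ran from 40.7 FPKM (Psmd12, a lid subunit) to 114 FPKM (Psmd2, a scaffold of the base). The median was 116 FPKM for 13 core genes and 68.4 FPKM for 17 base and lid genes, against 13.0 FPKM over all tested loci. Assembly factors and the inhibitor among the 48 genes were lower. The base assembly factors Psmd5, Psmd9 and Psmd10 stood at 24.8, 12.2 and 10.9 FPKM, the core chaperones Psmg1 to Psmg4 at 18.1 to 34.6 FPKM, and the inhibitor Psmf1 at 15.1 FPKM in the controls. Pomp, a core maturation factor outside the naming rule that is named here for its level, was at 135 FPKM and so within the range of the core genes.

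**Figure D1:**
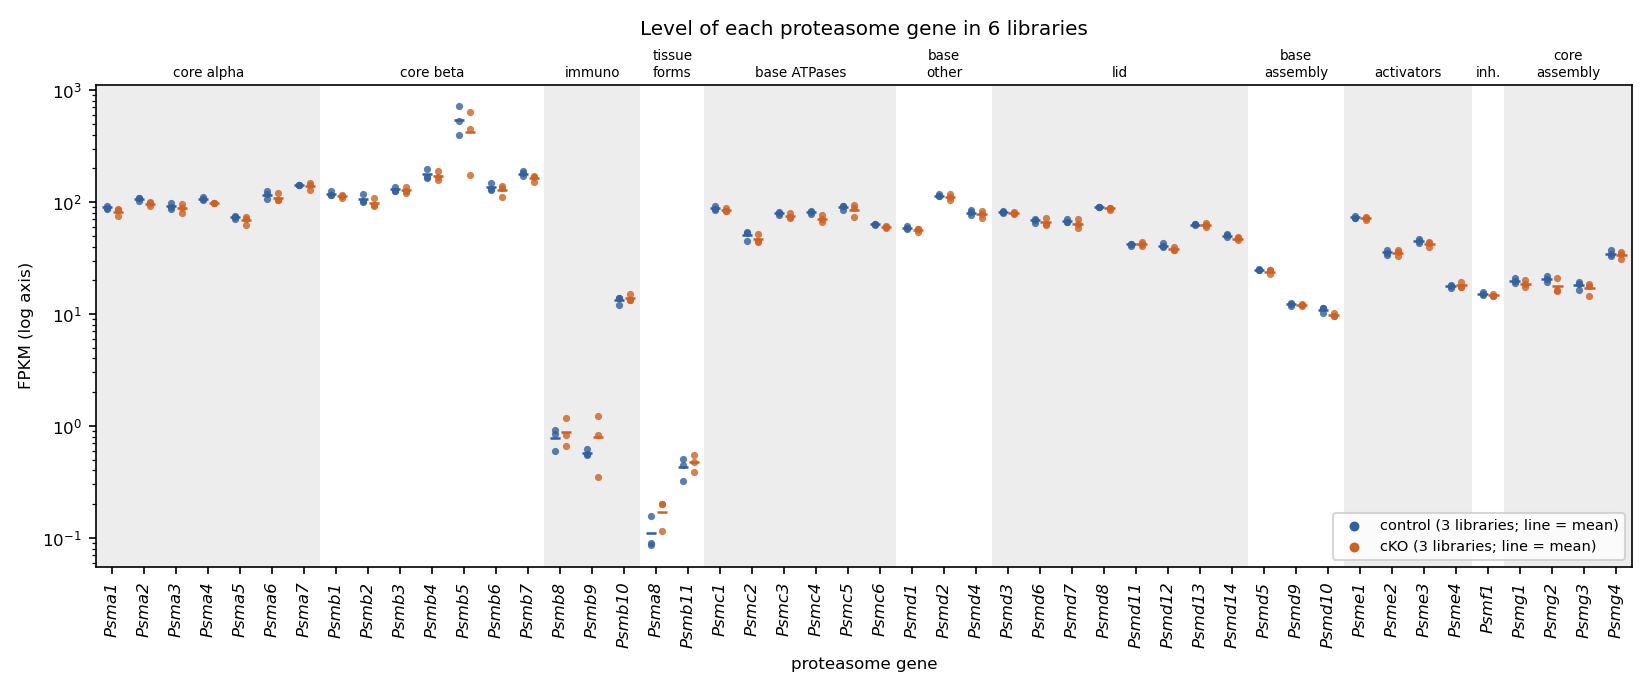
FPKM on a log axis for the 48 proteasome genes, grouped by role; each point is 1 library (blue, 3 controls; orange, 3 cKO) and each short line a group mean. Core, base and lid genes lie mostly between 40.7 and 179.5 FPKM in the controls, Psmb8, Psmb9, Psma8 and Psmb11 lie near or under 1 FPKM, and the spread of the Psmb5 locus stands out.

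Proteolytic subunits and their immunoproteasome counterparts differed widely in level. Psmb6 carries the caspase-like site and is replaced by Psmb9 in the immunoproteasome. Psmb6 stood at 149, 131 and 128 FPKM in control libraries and at 111, 133 and 139.7 FPKM in cKO 1, 2 and 3. Psmb9 stood at 0.624, 0.560 and 0.551 FPKM in control libraries and at 0.351, 1.23 and 0.823 FPKM in cKO, so the cKO values lay on both sides of the control values. Psmb6 was thus 236 times Psmb9 by control means, and between 108 and 315 times in single libraries. Psmb7, with the trypsin-like site, was at 180.2, 188 and 171 FPKM in control libraries and at 150.2, 167 and 172 FPKM in cKO. Its counterpart Psmb10 was at 13.8, 12.1 and 13.8 FPKM and at 13.3, 13.4 and 14.9 FPKM, a ratio of 13.6 by control means. Psmb8, the counterpart of Psmb5, was at 0.842, 0.596 and 0.911 FPKM and at 0.664, 1.16 and 0.830 FPKM. Of the immunoproteasome genes only Psmb10 was above 1 FPKM in each of the 6 libraries.

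The tissue-specific forms were at the bottom of the range. Psma8, the alpha subunit of the testis, lay between 0.0860 and 0.199 FPKM over the 6 libraries, and Psmb11, the beta subunit of the thymus, between 0.322 and 0.554 FPKM. With Psmb8 and Psmb9 these are the 4 proteasome genes that did not reach 1 FPKM in at least 3 libraries, so 44 of 48 were tested. No test of Psmb8, Psmb9, Psma8 or Psmb11 was made in the main comparison, and without a filter on low values 0 of the 48 passed (limma; 3 with an unadjusted p under 0.05).

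The promoters of Psmb6 and Psmb9 are shown because these genes encode alternative subunits for 1 proteolytic position and differ widely in level. Each is the 250 bases before the RefSeq gene start (GRCm38.p6), chr11:70525107-70525356 on the plus strand and chr17:34187331-34187580 on the minus strand, written 5′ to 3′ along the gene. Capitals mark matches on either strand to the motifs listed further on.
Psmb6: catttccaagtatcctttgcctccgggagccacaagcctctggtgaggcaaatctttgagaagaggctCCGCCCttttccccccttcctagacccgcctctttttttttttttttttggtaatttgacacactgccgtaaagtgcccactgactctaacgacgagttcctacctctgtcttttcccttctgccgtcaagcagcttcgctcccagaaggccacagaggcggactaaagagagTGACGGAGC
Psmb9: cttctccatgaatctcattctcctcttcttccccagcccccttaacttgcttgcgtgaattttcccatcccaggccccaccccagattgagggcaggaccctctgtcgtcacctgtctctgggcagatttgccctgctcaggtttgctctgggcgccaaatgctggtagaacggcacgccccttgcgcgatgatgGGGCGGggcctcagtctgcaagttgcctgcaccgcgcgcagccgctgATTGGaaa
The Psmb6 window held 1 GC box and, in its last 9 bases, 1 match to the core of the antioxidant response element, through which Nfe2l1 (known as a regulator of proteasome genes) acts. The Psmb9 window held 1 GC box and 1 CCAAT box. Neither held the letters of the interferon-stimulated response element core or the gamma-activated site core used here. In GENCODE M21, however, Psmb9 spans chr17:34181987-34187764 on the minus strand, so its window lies inside the gene by that annotation. The bases before the GENCODE start of Psmb9 were not searched.

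Psmb5, which carries the chymotrypsin-like site, could not be read on its own. In the table it shares its locus with the miRNA gene Mir686, whose 109-base hairpin lies on the same strand, wholly inside exon 2 of Psmb5-201 (GENCODE M21, GRCm38, chr14:54616677-54616785). The hairpin is printed with the mature miRNA in capitals, and the mature miRNA with its seed (bases 2 to 8) in capitals, since any read from this part of the Psmb5 messenger RNA also matches them (RefSeq, GRCm38.p6).
Mir686 hairpin: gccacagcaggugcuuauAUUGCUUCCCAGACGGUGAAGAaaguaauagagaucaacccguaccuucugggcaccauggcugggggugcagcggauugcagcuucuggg
mmu-miR-686: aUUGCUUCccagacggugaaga
The joint locus was at 392, 713 and 529 FPKM in control libraries and at 174, 452 and 631 FPKM in cKO 1, 2 and 3. The groups overlapped, and the log2 fold change was -0.52 with a standard error of 0.47, against at most 0.11 for any other tested proteasome gene. Its 545 ± 161 FPKM in the controls (SD, n = 3) exceeded the 106 to 179.5 FPKM of the other beta subunits. How much of it belongs to Psmb5 cannot be read from the table.

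The comparison of cKO with control asked whether loss of Zeb2 came with a change of proteasome genes. No proteasome gene passed over all loci: 0 of 44 had a limma adjusted p of at most 0.05, where 0.573% of all tested loci did (0.331% lower and 0.242% higher in cKO), and the smallest was 0.221 (Psmc4). At an unadjusted limma p under 0.05 there were 3 of the 44, all lower in cKO (6.82%), against 17.6% of all tested loci in either direction and 9.79% lower. Of the 44, 41 had a log2 fold change below 0, against 53% of all tested loci. Their median was -0.075, against -0.0095 over all tested loci. The 44 genes share the same 6 libraries, so they are not independent observations and this count is only a description. All tested loci are also at lower levels (median control mean 13.0 FPKM, against 72.9 FPKM for the 44), and no share matched for level was taken. The groups did not overlap for 6 of the 44, with cKO under control for all 6 (13.6%) and above for 0. Over all tested loci 23.9% did not overlap, 13.6% with cKO under and 10.3% with cKO above. In bulk tissue, fewer cells of a type and less RNA per cell cannot be told apart.

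The differences were small and their intervals narrow. The 95% interval of the log2 fold change, which is not adjusted for the number of genes, stayed within 0.5 of 0 for 43 of the 44 genes, the Psmb5 locus being the other, and within 0.3 of 0 for 34. The median SD of log2 values over the 6 libraries was 0.081 for the 44 genes and 0.11 over all tested loci.

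**Figure D2:**
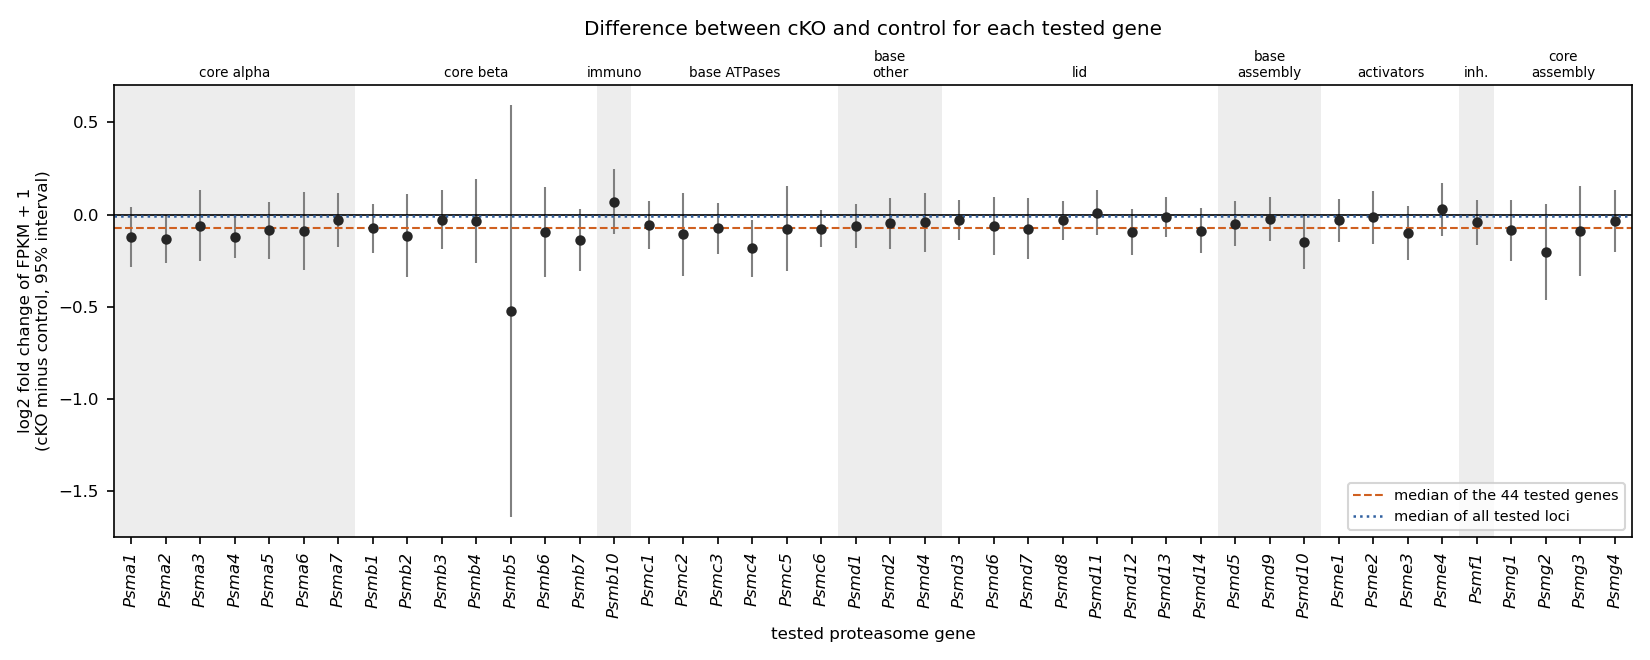
Log2 fold change of FPKM + 1 (cKO minus control) for the 44 tested proteasome genes, grouped by role; points are limma estimates, bars their 95% intervals, the dashed line the median of the 44 (-0.075) and the dotted line that of all tested loci (-0.0095). Points lie below 0 for 41 genes, and the interval of the Psmb5 locus is the widest.

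In the core alpha ring all 7 genes had negative log2 fold changes (median -0.090) and 0 passed. Psma4 was at 107, 110.4 and 104 FPKM in control libraries and at 98.8, 98.9 and 97.3 FPKM in cKO 1, 2 and 3. All cKO values lay under all control values, and the log2 fold change was -0.12 (SE 0.046, limma adjusted p = 0.241). Psma2 was at 107.5, 109 and 102 FPKM and at 92.0, 98.5 and 99.8 FPKM, with the largest difference of the ring (-0.13, SE 0.055, limma adjusted p = 0.280). Psma1 was the third gene of the ring with groups apart (87.4, 92.9 and 87.4 against 74.9, 86.7 and 84.8 FPKM). Psma7, the most abundant alpha gene, was at 142, 142 and 141 FPKM in control libraries and at 128, 142 and 146 FPKM in cKO, with a log2 fold change of -0.030. Here cKO 1 lay below the controls and cKO 2 and 3 above them, cKO 2 by under 1 FPKM. Psma3, Psma5 and Psma6 differed by -0.060, -0.085 and -0.090 with overlapping groups.

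The 7 beta genes also all had negative values (median -0.096, or -0.086 without the Psmb5 locus), and the groups overlapped for each of the 7. Psmb7 differed by -0.14 (SE 0.071, limma adjusted p = 0.364) and Psmb6 by -0.096 (SE 0.10). Psmb3, a structural subunit, was at 130 ± 6.79 and 127 ± 7.97 FPKM (SD, n = 3), a difference of -0.027. Psmb1, Psmb2 and Psmb4 differed by -0.076, -0.11 and -0.035. Psmb10 of the immunoproteasome had a positive value, 0.069 (SE 0.074, limma adjusted p = 0.677).

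Among the base ATPases all 6 values were negative (median -0.076). Psmc4 had the smallest p of all proteasome genes. It was at 78.0, 82.5 and 81.7 FPKM in control libraries and at 66.5, 76.7 and 70.0 FPKM in cKO, so the groups were apart, and its log2 fold change was -0.18 (SE 0.064, 95% interval -0.34 to -0.032, limma adjusted p = 0.221). Psmc6 was also apart, at 63.4, 62.6 and 63.7 FPKM against 60.3, 59.1 and 60.4 FPKM, a difference of -0.076 with SDs of 0.578 and 0.699 FPKM (n = 3). Psmc1, Psmc2, Psmc3 and Psmc5 differed by -0.057, -0.11, -0.074 and -0.077 with overlapping groups. The other base subunits were Psmd1 and Psmd2, which form its scaffold, and Psmd4, a ubiquitin receptor, with log2 fold changes of -0.062, -0.047 and -0.041.

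The lid genes differed little. Of the 8 genes 7 were below 0 and 1 above (median -0.047). Psmd8 was at 89.9, 90.1 and 89.3 FPKM in control libraries and at 85.6, 88.9 and 89.2 FPKM in cKO, apart by a small margin (-0.031). Psmd12 had the largest difference of the lid (-0.097, limma adjusted p = 0.396). Psmd14, the enzyme that removes ubiquitin chains, differed by -0.088 (50.1 ± 1.78 and 47.1 ± 1.61 FPKM, SD, n = 3), and Psmd11 by 0.011. Psmd3, Psmd6, Psmd7 and Psmd13 differed by -0.028, -0.062, -0.078 and -0.014, all with overlapping groups.

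Activators and the inhibitor differed little between the groups. Psme1 and Psme2 form the interferon-inducible activator ring and stood at 73.2 ± 2.16 and 35.4 ± 1.65 FPKM in control libraries and at 71.5 ± 2.08 and 35.1 ± 2.00 FPKM in cKO (SD, n = 3). Their log2 fold changes were -0.032 and -0.016. Psme3, which forms the nuclear activator ring, was at 45.1 ± 2.01 and 42.0 ± 2.47 FPKM (-0.10, limma adjusted p = 0.447). Psme4, a large single-chain activator, was at 18.3, 17.7 and 17.2 FPKM in control libraries and at 19.4, 17.5 and 17.4 FPKM in cKO, a difference of 0.028 with overlapping groups. The inhibitor Psmf1 differed by -0.043.

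The 7 assembly factors all had negative values and 0 passed. Psmg2, a chaperone of alpha ring assembly, was at 21.8, 20.7 and 19.1 FPKM in control libraries and at 16.5, 15.9 and 21.1 FPKM in cKO 1, 2 and 3. Thus cKO 1 and 2 lay below the controls and cKO 3 among them, and the log2 fold change was -0.20 (SE 0.11, limma adjusted p = 0.396). It was -0.13 without cKO 2 and -0.32 without cKO 3. Psmg1, Psmg3 and Psmg4 differed by -0.086, -0.089 and -0.036. Psmd10, a chaperone of the base also known as gankyrin, is the 1 proteasome gene on the X chromosome. It was at 11.3, 10.1 and 11.2 FPKM in control libraries and at 10.2, 9.52 and 9.52 FPKM in cKO (-0.15, SE 0.063, limma adjusted p = 0.290), and the Xist difference between the groups stands beside this value. Psmd5 and Psmd9 differed by -0.050 and -0.024.

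In most of the genes 1 library lay lowest. The lowest of the 6 values was that of cKO 1 for 29 of the 44 genes (65.9%), against 22.2% of all tested loci. By role, cKO 1 was lowest for 6 of 7 alpha, 7 of 7 beta, 5 of 6 ATPase and 5 of 8 lid genes, and for 0 of 4 activators. The median deviation of the 44 genes from their 6-library means was -0.099 log2 units in cKO 1, -0.015 in cKO 2 and -0.00076 in cKO 3, against 0.043, 0.022 and 0.0084 in controls 1, 2 and 3. Over all tested loci the same quantity was -0.0084 in cKO 1. Without cKO 1, 33 of the 44 genes were below 0, the median was -0.034 and 0 passed (limma). Among the genes named by rule, the values of Psma7, Psmb3, Psmb6, Psmc5, Psmd4, Psmg4 and the Psmb5 locus then turned positive and those of Psmd11 and Psme4 negative, by at most 0.027 in size. With the libraries centred on their medians, 39 of 44 were below 0 with a median of -0.051, against 0.014 over all loci.

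A second pattern was seen between the processing sets, of which the first holds only 1 control and 1 cKO library. Within the controls, control 1 was compared with the mean of controls 2 and 3, and within cKO, cKO 3 with the mean of cKO 1 and 2. These 2 differences share no library. Both were above 0 for each of the 6 beta genes (Psmb5 locus left out), with medians of 0.16 in the controls and 0.17 in cKO. For all 6 cKO 1 was also the lowest library, which raises the difference in cKO, so the 2 patterns overlap there. Psmb7, for example, had 0.010 in the controls and 0.12 in cKO. Of the 6 ATPase genes 4 were below 0 in both (medians -0.078 and -0.032). Medians in the controls were near 0 for the alpha ring (0.0090), the lid (0.012) and the activators (0.0053), and 0.13 for the core chaperones. Psmb2 was at 118 FPKM in control 1 and 109 FPKM in cKO 3, and at 98.9, 102, 92.3 and 93.2 FPKM in controls 2 and 3 and cKO 1 and 2. The values of Psmb2 were thus apart between the sets and overlapped between the genotypes. Psmb4, a structural beta subunit, was likewise at 196 and 189.6 FPKM in the first set and at 158 to 169 FPKM in the other. Psmc2 was at 45.1 and 45.0 FPKM in the first set, and at 53.9, 53.3 and 52.1 FPKM in controls 2 and 3 and cKO 2, with cKO 1 at 43.9 FPKM.

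Across the 43 genes without the Psmb5 locus, the 2 differences correlated at Pearson r = 0.68, given as a description across genes that share the same 6 libraries. The same r was 0.066 over all tested loci and 0.054 over the 7947 with a mean of at least 10 FPKM. The Psmb5 locus, left out of the 43, had -0.65 in the controls and 1.17 in cKO. No such locus was left out of either background, and all tested loci hold 232 small-RNA loci. The r values are therefore not taken over like sets. The 2 differences had 1 sign for 33 of 43 genes (76.7%), against 63.9% of all tested loci and 69.0% of those 7947. Control 1 and cKO 3 were both outside the range of the other 4 libraries for 14 of the 44 genes, 11 above and 3 below (31.8%), against 21.1% of all tested loci (11.3% above and 9.86% below). With the processing set as a covariate the median stayed at -0.075 and 0 genes passed, with 5 at an unadjusted limma p under 0.05. In the second set alone (controls 2 and 3 against cKO 1 and 2) the median was -0.081, with 40 of 44 below 0. What the sets stand for was not tested.

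**Figure D3:**
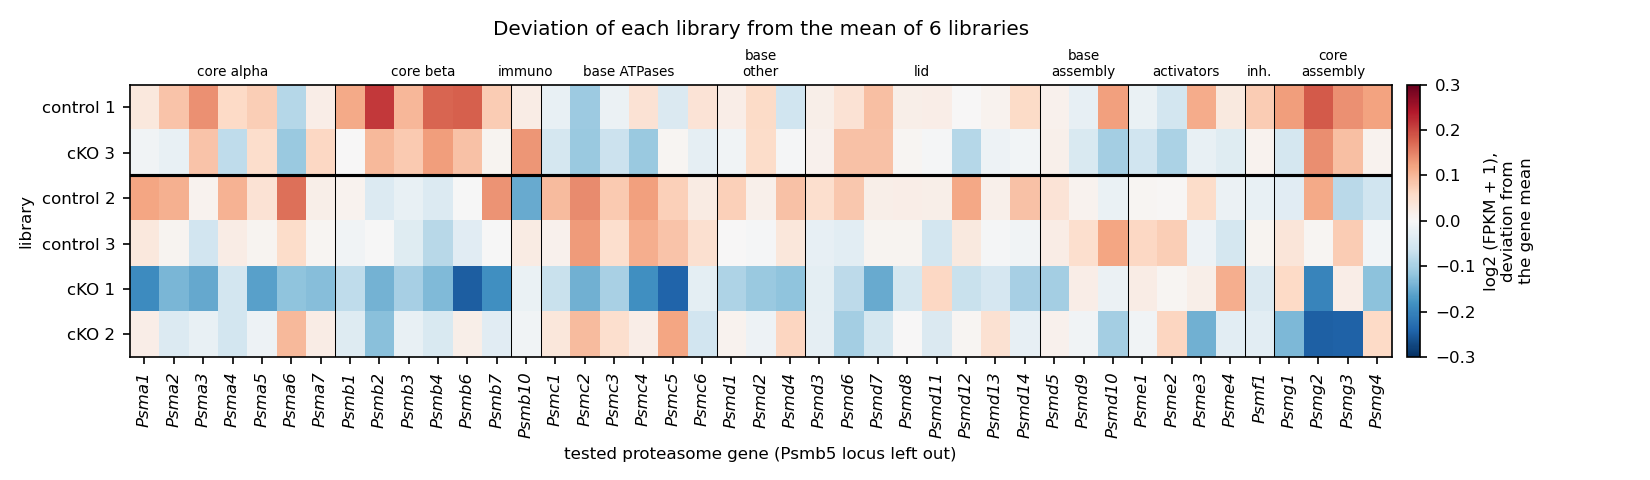
Deviation of log2(FPKM + 1) in each library (rows) from the mean of the 6 libraries, for 43 tested proteasome genes (columns, by role, Psmb5 locus left out); the black line divides the processing sets. Control 1 and cKO 3 are red for Psmb2, Psmb3, Psmb4 and Psmb6 and blue for Psmc2, and the row of cKO 1 is mostly blue.

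The other genes of the pathway were spread around 0. Of 31 measured genes (Paaf1 was not found by symbol), 14 were below and 17 above 0, with a median of 0.0093, and 0 passed (limma; 0 with an unadjusted p under 0.05). Nfe2l1, which activates proteasome genes when the proteasome is impaired, was at 45.7, 41.5 and 45.2 FPKM in control libraries and at 49.5, 45.5 and 47.8 FPKM in cKO, a log2 fold change of 0.11 with overlapping groups. Ddi2 (a joint locus with Rsc1a1 in the table) and Ngly1, the protease and the glycanase that process it, differed by -0.19 and -0.16 (limma adjusted p = 0.360 and 0.312). Akirin2, an importin adaptor that brings proteasomes into the nucleus, differed by 0.11, and Sem1 (Shfm1 in the table), a small lid subunit outside the naming rule, by -0.15 (174, 158 and 154 against 133, 156 and 149.9 FPKM). Usp14, a deubiquitinase of the base, differed by 0.10, and the unfoldase Vcp by -0.049. The joint locus of Gm1821 and the polyubiquitin gene Ubb was at 521 ± 82.7 and 553 ± 34.1 FPKM (SD, n = 3).

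The values of 2 other large complexes stand beside these. The chaperonin, which folds actin and tubulin, had 8 of 8 genes below 0 (median -0.095), 0 passed, and cKO 1 was the lowest library for all 8. Cct3 was at 136 ± 6.11 and 123 ± 7.91 FPKM (SD, n = 3; -0.15, limma adjusted p = 0.315). The COP9 signalosome, whose subunits resemble those of the lid, had 8 of 9 below 0 (median -0.055), with cKO 1 lowest for 4 of 9 and 0 passed. Cops3 differed by -0.15 (55.2 ± 0.740 and 50.0 ± 4.57 FPKM, SD, n = 3). No test of a difference between these complexes and the proteasome was made.

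Markers of several cell types differed by more than the proteasome genes, and their values stand beside the results. All 12 genes of proliferating cells were below 0 (median -0.45) and 5 passed (limma), with summed levels of 444 to 499 FPKM in control and 337 to 361 FPKM in cKO. All 10 granule neuron progenitor genes were below 0 (median -0.32), with sums of 738 to 838 and 650 to 709 FPKM, and 1 passed. Of 9 genes of Bergmann glia and astrocytes 6 were below and 3 above 0 (median -0.074, 1 passed), with sums of 2149.7 to 2190.1 and 2000.2 to 2138.6 FPKM. Their single values ran from -1.26 (Gdf10) to 0.68 (Aldoc). Most of the sum was Fabp7 (control mean 1577 FPKM, log2 fold change 0.0032), so median and sum hide these opposed differences. All 7 Purkinje cell genes were above 0 (median 0.16, 0 passed, 3 with an unadjusted limma p under 0.05), with sums of 785 to 839 and 852 to 915 FPKM. Of 15 microglia and macrophage genes 13 were tested and all 13 were above 0 (median 0.33, 1 passed), with sums of 68.5 to 72.3 and 87.3 to 94.6 FPKM. Of 15 interferon and antigen presentation genes 10 were tested, 7 above and 3 below 0 (median 0.22, 0 passed), with overlapping sums of 90.0 to 95.2 and 87.6 to 102 FPKM. Of 10 endothelial genes 8 were above 0 (median 0.11, 0 passed), with sums of 82.2 to 100.2 and 109 to 112 FPKM, and of 8 tested genes of meningeal fibroblasts 7 were above 0 (median 0.96, 0 passed), with overlapping sums of 21.2 to 44.2 and 24.8 to 73.2 FPKM. Tap1, a peptide transporter beside Psmb9 in the genome, was at 2.12, 1.73 and 1.88 FPKM in control libraries and at 2.63, 2.84 and 2.23 FPKM in cKO (0.29, limma adjusted p = 0.196). Psmb8, Psmb9 and Psmb10 overlapped between the groups. The part of cell composition in the proteasome values was not tested.

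**Figure D4:**
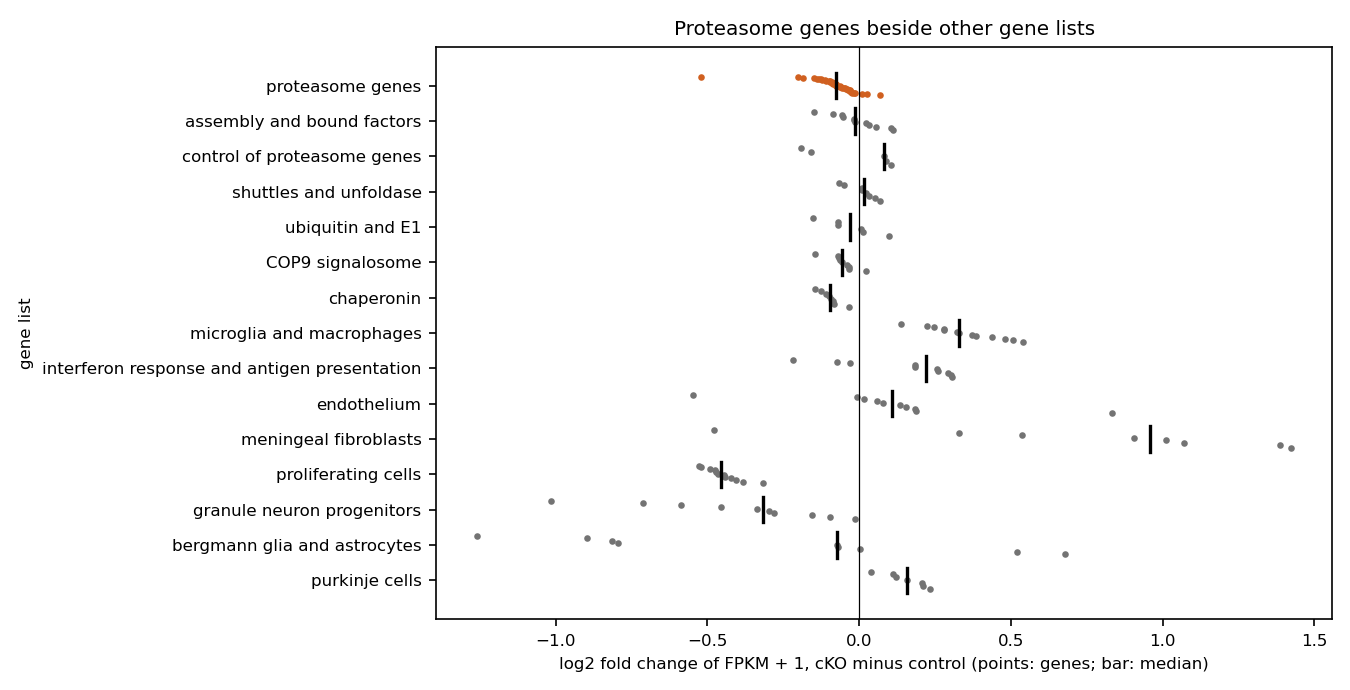
Log2 fold change of FPKM + 1 (cKO minus control) of single tested genes (points) in each gene list, with the median as a black bar. Proteasome genes (orange, median -0.075) lie just left of 0 beside the chaperonin (-0.095), while genes of proliferating cells (-0.45) and microglia (0.33) lie further out.

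Promoters were described for what the members share. RefSeq windows were matched for 40 of the 48 genes, and their GC content had a median of 57.6%, against 52.4% over 27025 genes with such a window. The ETS motif (ACTTCCG; each motif was searched on both strands) was in 9 of 40 windows (22.5%), against 5.58% of all genes, among them those of Psmc1, Psmc2, Psmd8, Psmd12 and Psmd14. The nuclear respiratory factor motif (GCGC, any base, then TGCGC) was in 6 of 40 (15%, against 4.23%), namely Psma2, Psma3, Psma4, Psmc4, Psmc5 and Psmd14. The GC box (GGGCGG) was in 22 of 40 (55%, against 35.4%) and the CCAAT box (CCAAT) in 14 of 40 (35%, against 37.5%). The antioxidant response element core (TGACNNNGC) was in 5 of 40 (12.5%, against 11.5%) and the TATA box (TATAAA) in 4 of 40 (10%, against 14.3%). The interferon-stimulated response element core (GAAA, any 2 bases, then GAAA) was in 3 of 40 (7.5%, against 3.46%) and the gamma-activated site core (TTCNNNGAA) in 2 of 40 (5%, against 8.13%). These are matches of letters, not sites shown to be bound, and no test was made of any share.

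The windows of Psmc4 and Psma4 are shown because these genes had the smallest p of the 44 and groups apart. They lie at chr7:28050093-28050342 on the minus strand and chr9:54950609-54950858 on the plus strand (RefSeq, GRCm38.p6, 250 bases before the start), with motif matches in capitals.
Psmc4: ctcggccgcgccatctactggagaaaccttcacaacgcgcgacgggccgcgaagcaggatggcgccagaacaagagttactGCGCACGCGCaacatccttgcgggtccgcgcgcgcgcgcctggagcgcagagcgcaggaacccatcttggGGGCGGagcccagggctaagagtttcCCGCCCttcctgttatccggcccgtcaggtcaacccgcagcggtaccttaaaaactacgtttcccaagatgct
Psma4: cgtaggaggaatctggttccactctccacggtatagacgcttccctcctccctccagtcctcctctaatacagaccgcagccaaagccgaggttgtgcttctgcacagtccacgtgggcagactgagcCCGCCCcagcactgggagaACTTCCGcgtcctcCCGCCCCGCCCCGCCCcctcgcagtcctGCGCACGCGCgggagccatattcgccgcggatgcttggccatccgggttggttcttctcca
Both held the nuclear respiratory factor motif in the form GCGCACGCGC, 160 to 169 bases before the RefSeq start in Psmc4 and 52 to 61 bases before it in Psma4. Psmc4 had 2 GC boxes besides. Psma4 had 1 ETS motif and 4 GC boxes, of which 3 overlap end to end. Neither window held a CCAAT or TATA box of these letters. By GENCODE M21 Psma4 starts at chr9:54950790, so its nuclear respiratory factor match lies inside the gene there. The same motif was in the windows of Psma3, Psmc5 and Psmd14, whose groups overlapped, and of Psma2, whose groups were apart. A link between motifs and fold changes was not tested.

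In the genome the 48 genes were scattered over 16 chromosomes (GENCODE M21, GRCm38), with 47 outside X. Psmb5 (chr14:54614119-54618022) and Psmb11 (chr14:54621433-54629556) lie side by side, and so do Psme1 (chr14:55578123-55581529) and Psme2 (chr14:55587441-55591113), which encode partners of 1 ring and were at 73.2 and 35.4 FPKM in the controls. Psmb9 (chr17:34181987-34187764) and Psmb8 (chr17:34197721-34201454) lie together in the major histocompatibility region, and both stood at 1.23 FPKM or less in every library.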

How the data were processed

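RNA was isolated with Trizol and made into libraries with an Illumina TruSeq kit, per the labels' protocols. The submitters' processing notes list CASAVA, TopHat, Cufflinks and build mm10. The deposited values were read as FPKM, inferred from the Cufflinks locus names and the values, since no label names the unit. Of versions, annotation, strand setting and scaling, the sources used here say nothing. For cKO 1 the title and the description carry different numbers, and the title, which matches the column, was used.

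The 13612 loci that reached 1 FPKM in 3 or more libraries were fitted as log2(FPKM + 1) with limma 3.58.1 (R 4.3.3, trend, two-sided), with Benjamini-Hochberg adjustment over all of them and a threshold of 0.05. Log2 fold changes are cKO minus control on that scale, which understates changes of low genes. On simulated data, 70 of 100 loci changed by 0.5 and 96 of 100 changed by 1 were called among 13612. There each locus varied independently, with no effect shared by a library, and changes were planted only in loci at higher levels. Changes as small as the median of the proteasome genes were not simulated. Depth is unknown, so no counting interval is given. Other steps ran in Python 3.11.15, pandas 2.3.3, numpy 2.4.6, scipy 1.17.1 and matplotlib 3.10.9.

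The members, lists and tests were chosen with earlier results of these data known. The rule named Zeb2, the proteolytic and immunoproteasome subunits, activators and inhibitor, in each other role the extremes of fold change and control level, tissue-specific forms, and up to 4 genes of each other list with the smallest p. Further proteasome genes (such as Psma4, Psmb4 and Psmc6), the genes named for a motif and the cell type markers were named after their values were seen.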

Additional observations from a re-analysis of the deposited data

How the results depend on the processing

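Across 22 alternatives, 21 planned and 1 added after seeing the data (small-RNA loci left out with the processing set as a covariate), 0 proteasome genes passed in each (limma), with a smallest adjusted p between 0.125 and 0.379, and their median stayed below 0, from -0.081 to -0.034. The value nearest 0 was without cKO 1 (-0.034), and leaving out any 1 of the 6 libraries gave -0.081 to -0.034. The number of called loci over the whole table, 78, was 21 to 55 with 1 library left out, 15 with the replicate number as a replicate block, 22 with the deposit as a covariate, 30 in the second processing set alone, 28 without a filter, 30 at a mean of at least 5 FPKM, 336 with robust variance, 329 with small-RNA loci left out and 519 with that and the processing set as a covariate. By the labels, same-numbered libraries share only a number and the deposit (correlation of their deviations -0.0268, 0.0373 and 0.0488), and the block changed no call of a proteasome gene. Zeb2 (log2 fold change -0.77) passed with small-RNA loci left out (adjusted p = 0.0461) and with that and the processing set (0.0350), and lay between -0.88 and -0.59 with 1 library left out. The sign of a named gene turned in 17 refits, all near 0, and did not turn in 642. Among them were Psme2 (0.0077 with median centring) and Psmg4 (0.00086 in the second processing set alone). With 1 library left out the values ranged over Psma7 -0.068 to 0.027, Psmb3 -0.074 to 0.015, the Psmb5 locus -0.91 to 0.015, Psmb6 -0.16 to 0.0044, Psmc5 -0.15 to 0.024, Psmd11 -0.018 to 0.035, Psmd4 -0.084 to 0.0088, Psme2 -0.052 to 0.028, Psme4 -0.020 to 0.053, Psmg3 -0.16 to 0.0099 and Psmg4 -0.075 to 0.017. The causes were not tested. With the depth unknown, no counting error could be given for any gene, the low Psmb8, Psmb9, Psma8 and Psmb11 included.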
